A study of Mus musculus with 96 samples.

Results

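The mRNAs of 56 splicing factor genes were followed through 2 time courses of mouse embryonic fibroblasts (MEF) that re-entered the cell cycle from serum starvation. The genes were chosen by symbol from the 15895 genes of the expression table, as every gene named Srsf, Hnrnp, Snrp followed by a letter of the Sm or U1/U2 proteins, numbered Snrnp, or Sf3a and Sf3b. They form 5 families of 11 SR proteins, 18 hnRNP proteins, 12 Sm and U1/U2 snRNP proteins, 7 numbered snRNP proteins and 8 SF3A and SF3B subunits.

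Primary MEF cells of the Cf-1 strain, from E13 embryos per the study's methods, were kept for 36 h in medium with 0.5% serum, and serum was then given back at a final share of 20%. RNA was sequenced from libraries of 2 separate time courses, Cycle 1 (63 libraries, from -1 h to 38 h) and Cycle 2 (32 libraries, from -1 h to 27 h). The labels name no genetic change and no drug, and the starved libraries at -1 and 0 h of each Cycle are the controls for its later hours. No source used here says how many embryos the cells came from. The libraries were averaged in windows of hours, and the overall difference between the 2 Cycles was removed in the fit. A p-value therefore measures only the spread that remained between the Cycles, pooled over all windows of a gene. The fit counts these serial windows as independent, although they come from the same 2 time courses. In the 29 hours after serum that both Cycles sampled, groups of neighbouring hours are here called early (1 to 3 h), G1 hours (4 to 10 h), middle (11 to 18 h) and late (19 to 27 h).

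Removal of introns is carried out by the spliceosome, which is built from small nuclear ribonucleoproteins (snRNPs). Each snRNP holds a short RNA and a ring of Sm proteins or, in the U6 particle, of Lsm proteins, to which proteins specific to that particle are added, and the SF3A and SF3B complexes of the U2 particle hold the branch point of the intron. SR proteins and hnRNP proteins bind the pre-mRNA itself and raise or lower the use of nearby splice sites.

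The values are read counts on exons that were scaled to the same total in each library, and are called normalized counts below. They are shares of the counted RNA, so a change in RNA per cell is not seen, and a smaller share of some cells cannot be told apart from less RNA per cell. Depth was inferred from what 1 read is worth in each library, under an assumed common total. It ran from 5067427 to 14500301 reads with a median of 10832561, and fewer reads were recovered for the genes of the table. The shallowest libraries in the late hours of Cycle 1 were those at 24 and 26 h. All 12 fibroblast markers were above 0 in every library, and their summed level fell from between 602065 and 626598 in the starved libraries of Cycle 1 to between 206401 and 218730 at 19 to 27 h. In Cycle 2 the sum was between 445812 and 466391 starved and between 214178 and 249946 late. In the test described below, 9 of the 12 fell late (34.1% of all genes) and 2 rose (20.2% of all genes). The 14 measured markers of other cell types summed to between 1501 and 1623 starved and between 732 and 1088 late in Cycle 1. Their sum in Cycle 2 was between 3523 and 3618 starved and between 2091 and 3166 late. Alb, Myod1, Epcam, Pecam1 and Cdh5 were at 0 in some libraries, and the others were above 0 in every library. Lyz2 had the highest median (744, from 307 to 4066). Cd68 lay between 37.3 and 245, Emr1 between 12.7 and 139, and Ptprc between 2.62 and 91.4.

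In the libraries labelled as taken right before serum, immediate early genes were already high. Fos, a gene that responds to serum within minutes, stood at 914 normalized counts at -1 h and 24883 at 0 h in Cycle 1, and at 466 and 15149 in Cycle 2. The median log2 difference of the 56 genes between 0 and -1 h was -0.14 in Cycle 1 and -0.03 in Cycle 2, and the counts without the 0 h libraries are given below where they differ for the families or for all 56 genes. The Cycles also differed before serum. The summed level of 10 cycling markers was between 17018 and 17899 in the starved libraries of Cycle 2 and between 5699 and 6059 in those of Cycle 1. Late, the sum was between 20850 and 26304 in Cycle 1 and between 18591 and 20175 in Cycle 2. The part of the markers and of the 0 h libraries in the results below was not tested.

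Most splicing factor mRNAs were higher late in the course than before serum. At 19 to 27 h the median log2 change of the 56 genes against the starved libraries of the same Cycle was 0.45, beside -0.16 for all 15895 genes. In limma's moderated test, with 1 value per group of hours and Cycle and Benjamini-Hochberg adjustment over all genes, 32 of the 56 genes rose late, where 20.2% of all genes rose, and 3 fell, where 34.1% of all genes fell. The genes that fell were Srsf12, Srsf5 and Hnrnph3. Without the 0 h libraries 28 rose (19.0% of all genes) and 2 fell (34.4% of all genes). With edgeR on recovered reads 43 rose (27.4% of all genes) and Srsf12 alone fell (28.7% of all genes). Of the 32 genes, 25 were called as higher in each of the 14 settings of the analysis. In both Cycles every late library lay above both starved libraries for 26 of the 56 genes, against 16.4% of all genes, and for 1 gene, Srsf12, every late library lay below both, against 23.3% of all genes.

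**Figure D1:**
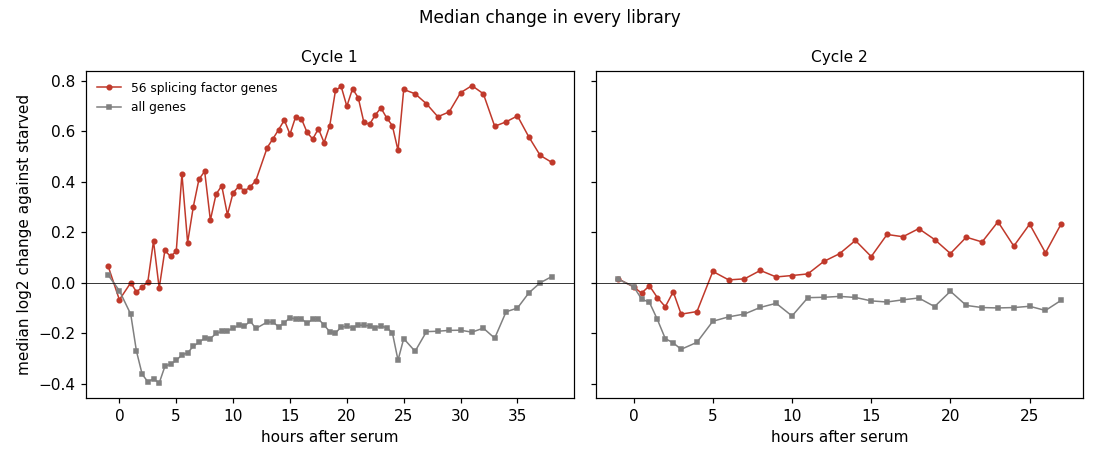
The median log2 change of the 56 splicing factor genes (red) and of all 15895 genes (grey) against the starved libraries of the same Cycle, on the vertical axis, is drawn for every library against hours after serum. The red points lie above the grey ones in every library from 1 h on in both Cycles, and reach a late level in Cycle 1 that those of Cycle 2 do not reach.

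Fewer genes passed the test at the earlier hours. In the early hours 2 genes rose (10.1% of all genes) and 4 fell (29.3% of all genes), or 7 (31.2% of all genes) without the 0 h libraries. The early median log2 change was -0.04, beside -0.24 for all genes. When each library was scaled by the median ratio over genes, the early median of all genes moved to -0.01 and that of the 56 genes to 0.21. Then 10 of the 56 genes rose (17.9%), near the 16.7% of all genes, and 2 fell (16.2% of all genes). No early direction of the group therefore holds across scalings. In the G1 hours 11 genes rose (18.3% of all genes) and 6 fell (34.4% of all genes). Without the 0 h libraries 6 rose (17.5% of all genes) and 6 fell (35.3% of all genes). The number that rose in the G1 hours depended on the fit. It was 7 without the replicate block (14.5% of all genes) and 17 with quantile scaling (25.4% of all genes). It was 21 with median ratio scaling (24.1% of all genes) and 25 with edgeR (25.3% of all genes). In the middle hours 22 genes rose (19.9% of all genes) and 3 fell (30.7% of all genes). Without the 0 h libraries 21 rose (18.7% of all genes) and 3 fell (31.0% of all genes). The median log2 change was 0.18 in the G1 hours and 0.33 in the middle hours, beside -0.22 and -0.13 for all genes. From the G1 hours to the late hours 18 genes rose (22.8% of all genes) and none fell (19.9% of all genes). Without the 0 h libraries 19 genes rose (22.2% of all genes). The count of 0 is that of limma, and edgeR on recovered reads also gave 0. For 0 of the 56 genes the unadjusted 95% interval lay wholly below 0. The F test over all windows called 29 of the 56 genes, a share below the 74.1% of all genes.

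The size of the rise differed between the Cycles. The late median log2 change was 0.69 in Cycle 1 and 0.16 in Cycle 2. The starved level was higher in Cycle 2 for 41 of the 56 genes, with a median log2 difference of 0.21. The late level was higher in Cycle 2 for 6 of them, with a median log2 difference of -0.28. Of the 11882 genes with a mean of at least 20, 5651 were higher in Cycle 2 starved (median -0.03) and 5298 late (median -0.04). Cycling markers, with a median log2 difference of 1.61 between the starved libraries, were higher in Cycle 2 for all 10 genes. With 1 series each, the difference between the Cycles could not be tested. Across the 29 shared hours the Pearson correlation of a gene's log2 values between Cycles had a median of 0.66 over the 56 genes, from 0.01 for Hnrnpf to 0.89 for Srsf4, beside 0.72 for the 11882 genes with a mean of at least 20. These points are serial samples and are given as a description only.

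**Figure D2:**
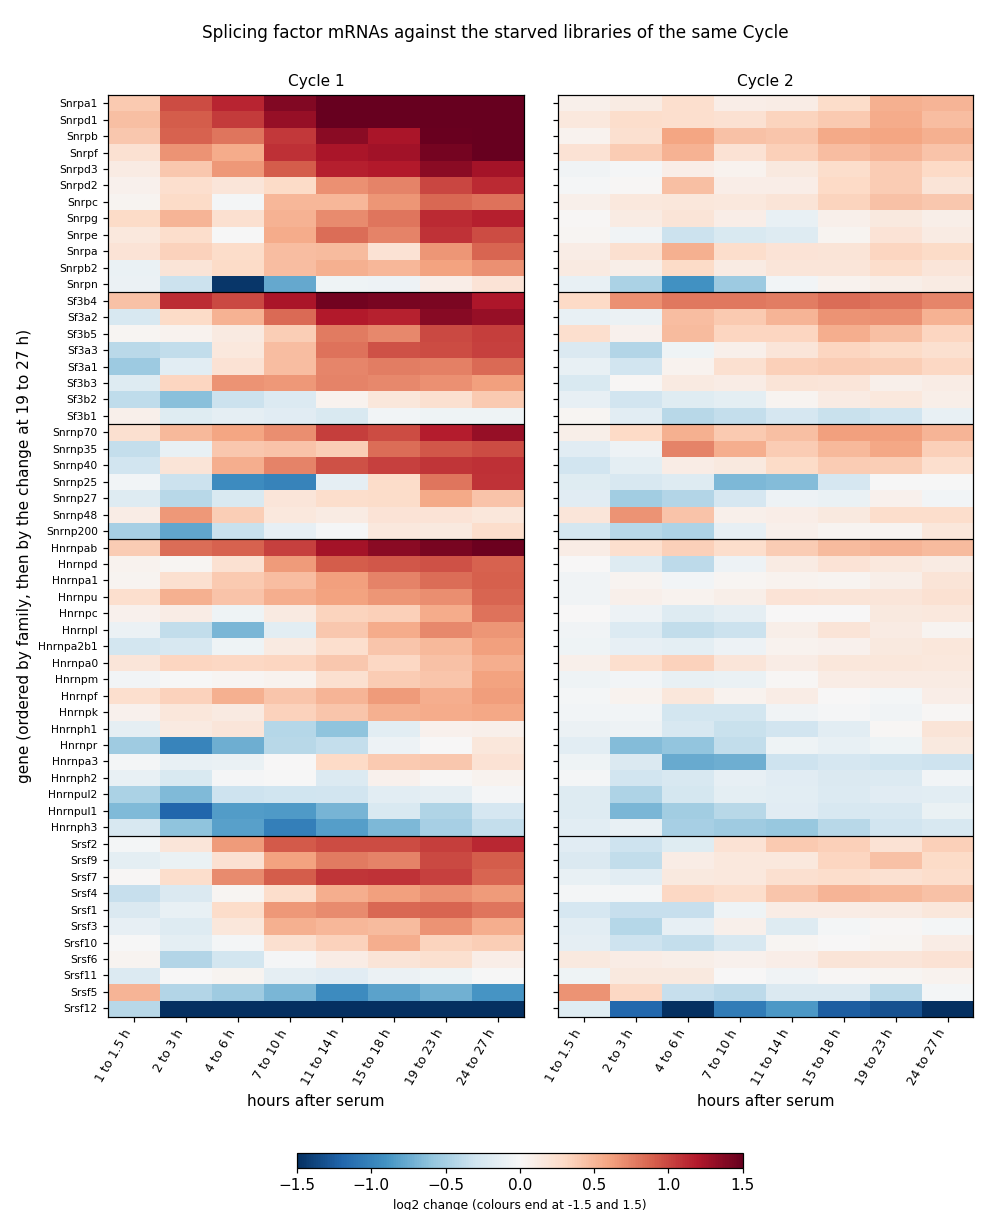
Each row is 1 of the 56 genes, ordered by family and by late change, each column a window of hours after serum, and the colour is the log2 change against the starved libraries of the same Cycle (red higher, blue lower, colours ending at -1.5 and 1.5). The Sm and U1/U2 rows at the top are red in most windows of Cycle 1 and paler in Cycle 2, and Srsf12 in the last row is blue in nearly all windows of both.

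Sm and U1/U2 proteins held the largest share of rising genes of the 5 families late, but not in the G1 or middle hours. Late, 11 of the 12 rose (20.2% of all genes) and none fell (34.1% of all genes), with a median log2 change of 0.65. The gene not called was Snrpn. None had an unadjusted 95% interval wholly below 0, and none fell in edgeR. Without the 0 h libraries 10 rose, since Snrpe was no longer called. In the G1 hours 2 of the 12 rose (18.3% of all genes), beside 3 of the 8 SF3A and SF3B subunits. In the middle hours 6 of the 12 rose (19.9% of all genes), beside 6 of those 8. The correlation between the Cycles had a median of 0.50 in the Sm and U1/U2 family, beside 0.66 over the 56 genes. Snrpa1 (chr7:73205185-73219468, plus strand, NCBIM37, the assembly also called mm9) encodes a protein specific to the U2 particle. It stood at 422 and 312 normalized counts in the starved libraries of Cycle 1 and at 725 and 727 in those of Cycle 2. At 19 to 27 h it lay between 1523 and 2038 with a median of 1766 in Cycle 1, and between 859 and 1188 with a median of 1049 in Cycle 2. The late libraries did not overlap the starved ones in either Cycle, and the late levels of Cycle 1 were above all those of Cycle 2. The change was 4.98-fold in Cycle 1 and 1.43-fold in Cycle 2. The log2 change was 1.42 ± 0.37 (limma's SE, limma adjusted p = 0.0083). Here and below the SE is pooled over all windows of a gene. It is therefore not the spread of the 2 late changes, which were far apart for Snrpa1. In the F test over all windows Snrpa1 was not called (limma adjusted p = 0.086).

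Snrpd1 and Snrpb encode Sm ring proteins of the U1, U2, U4 and U5 particles. Snrpd1 rose from 311 and 299 to between 833 and 1324 late in Cycle 1 and from 579 and 494 to between 699 and 823 in Cycle 2. Snrpb rose from 1079 and 922 to between 2331 and 3723 in Cycle 1 and from 1354 and 1436 to between 1935 and 2252 in Cycle 2. For both genes every late library was above both starved libraries of its Cycle. The log2 change was 1.14 ± 0.26 for Snrpd1 (limma adjusted p = 0.0047) and 1.05 ± 0.20 for Snrpb (limma adjusted p = 0.0018). The F test over all windows called Snrpb (limma adjusted p = 0.018) but not Snrpd1 (limma adjusted p = 0.053). Both genes were also called in the G1 and middle hours. Without the 0 h libraries Snrpd1 was not called in the G1 hours (log2 change 0.64, limma adjusted p = 0.073). In the 50-base stretches of its transcript that were searched, 20.3% of Snrpd1 matched the genome elsewhere without a mismatch.

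Snrpg, another ring protein, had the smallest F of the family over the windows. It was at 97.7 and 106 before serum and between 170 and 326 late in Cycle 1, but at 129 and 137 and between 131 and 176 in Cycle 2, where the groups overlapped. Its log2 change of 0.63 ± 0.22 passed the test (limma adjusted p = 0.036), with 1.14 in Cycle 1 and 0.12 in Cycle 2. For Snrpg, 34.5% of the searched stretches had a perfect copy elsewhere.

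Snrpn, an imprinted gene whose SmN protein takes the place of SmB in neurons, followed another course. Snrpn lies at chr7:67127388-67285105 on the minus strand (NCBIM37). It was at 78.2 and 84.2 normalized counts before serum in Cycle 1 and at 79.5 and 81.3 in Cycle 2. At 4 to 10 h it lay between 24.0 and 59.4 in Cycle 1 and between 38.4 and 62.8 in Cycle 2, below both starved libraries in each. The log2 change was -0.92 ± 0.14 (limma adjusted p = 0.00041), with the lowest window at 4 to 6 h, a change of -1.18. By 19 to 27 h it was back at a median of 83.4 in Cycle 1 and 87.8 in Cycle 2. From the G1 hours to the late hours it rose by 1.04 ± 0.11 on the log2 scale (limma adjusted p = 8.0e-05). Snrpn was picked for description after its values were seen, as were Srsf5, Srsf4, Snrnp48, Snrnp200, Hnrnpr and Hnrnpl below.

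Of the SF3A and SF3B subunits, 5 of 8 rose late (20.2% of all genes) and none fell (34.1% of all genes). Their median log2 change was 0.60. None had an unadjusted 95% interval wholly below 0, and none fell in edgeR. Sf3b4 (chr3:95976255-95981487, plus strand, NCBIM37) encodes the SF3B subunit that binds the intron near the branch point. It rose first, from 117 and 113 to between 151 and 278 at 1 to 3 h in Cycle 1 and from 164 and 132 to between 168 and 249 in Cycle 2, and all early libraries lay above both starved ones. Its log2 change was 0.63 ± 0.15 early (limma adjusted p = 0.0068) and 1.12 ± 0.15 in the middle hours (limma adjusted p = 0.00022). Of its searched stretches 57.5% matched elsewhere, so its level is uncertain.

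Sf3a2, a subunit of SF3A that helps to hold the U2 particle on the branch point, was not called in the early hours (log2 change -0.04 ± 0.19, limma adjusted p = 0.89). It went from 322 and 309 normalized counts to between 649 and 912 late in Cycle 1 and from 397 and 358 to between 486 and 626 in Cycle 2, with no overlap in either Cycle. The late log2 change was 0.97 ± 0.19 (limma adjusted p = 0.0022). In the G1 hours its call was lost without the 0 h libraries (log2 change 0.50, limma adjusted p = 0.054). Sf3b5, a small subunit of SF3B, rose late by 0.70 ± 0.21 on the log2 scale (limma adjusted p = 0.015), with 1.01 in Cycle 1 and 0.39 in Cycle 2. Sf3b1, the large SF3B subunit that encloses the branch point adenosine, was between 3210 and 3789 in the 4 starved libraries and between 2646 and 3640 late. Its late log2 change was -0.13 with a 95% interval from -0.38 to 0.11, so a rise of the size of Sf3a2 lay outside the interval.

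Sequences before the start of a gene were read for the 50 of 56 genes that have an entry in the RefSeq promoter table (build GRCm38.p6, 250 bases before each annotated start). The motif CCGGAAG, or CTTCCGG on the other strand, which is the core bound by ETS family transcription factors, was in the window of 16 of the 50 genes (32.0%) and of 7.83% of the 27025 genes in the table. The E-box CACGTG was in 4 of the 50 (8.0%, beside 6.86% of all genes), the motif of NRF1 in 2 (4.0%, beside 0.877%) and TATAAA in 7 (14.0%, beside 14.3%). Both strands were searched, and none of the 3 motifs spelled out here contains another. Late, 9 of the 16 genes with CCGGAAG rose and 1 fell, and 18 of the 34 without it rose and 2 fell, with late medians of 0.48 and 0.37. A match is a description of the letters and not a bound site. Below are 3 of the 16 windows, for 2 genes that rose late (Sf3a2 and Srsf7) and for Srsf11, which had the smallest F of the SR proteins, 5′ to 3′ on the strand of the gene, with the motif in capitals. In GRCm38.p6 they lie at chr10:80798485-80798734 on the plus strand, chr17:80207306-80207555 on the minus strand and chr3:158036607-158036856 on the minus strand.
Sf3a2: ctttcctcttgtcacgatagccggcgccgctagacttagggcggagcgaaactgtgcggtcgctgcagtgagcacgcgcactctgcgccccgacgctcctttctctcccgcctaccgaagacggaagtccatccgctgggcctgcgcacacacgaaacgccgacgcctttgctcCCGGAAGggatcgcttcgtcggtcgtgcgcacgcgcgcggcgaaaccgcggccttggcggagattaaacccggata
Srsf7: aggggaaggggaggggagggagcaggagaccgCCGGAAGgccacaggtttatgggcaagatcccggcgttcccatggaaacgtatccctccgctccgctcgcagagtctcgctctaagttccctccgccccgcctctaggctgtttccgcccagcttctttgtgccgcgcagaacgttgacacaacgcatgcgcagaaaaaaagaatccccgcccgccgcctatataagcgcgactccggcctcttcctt
Srsf11: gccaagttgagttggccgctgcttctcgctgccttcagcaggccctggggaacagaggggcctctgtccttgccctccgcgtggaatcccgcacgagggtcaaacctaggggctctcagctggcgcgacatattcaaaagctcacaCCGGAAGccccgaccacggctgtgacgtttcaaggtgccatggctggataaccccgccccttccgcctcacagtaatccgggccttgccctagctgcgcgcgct

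Among the numbered snRNP proteins, 4 of 7 rose late (20.2% of all genes) and none fell (34.1% of all genes). None had an unadjusted 95% interval wholly below 0, and none fell in edgeR. Without the 0 h libraries 3 rose. Snrnp70, the U1 protein that binds the stem loop of U1 RNA, rose from 1697 and 1479 to between 3119 and 6172 late in Cycle 1 and from 1692 and 1782 to between 2400 and 2835 in Cycle 2. The groups did not overlap, and the log2 change was 0.90 ± 0.17 (limma adjusted p = 0.0013). Snrnp40, a protein of the U5 particle, rose late by 1.08 on the log2 scale in Cycle 1 and 0.31 in Cycle 2 (0.70 ± 0.18, limma adjusted p = 0.0085). Snrnp35, Snrnp25 and Snrnp48 belong to the U11/U12 particle of the minor spliceosome, and each had its own course. Snrnp35 rose late by 0.71 ± 0.18 (limma adjusted p = 0.0081).

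Snrnp48 was higher early, with a log2 change of 0.40 ± 0.09 (limma adjusted p = 0.0044), and rose from 218 and 191 to between 189 and 356 at 1 to 3 h in Cycle 1 and from 187 and 171 to between 201 and 342 in Cycle 2. Only in Cycle 2 did all early libraries lie above the starved ones. Snrnp25 (chr11:32105415-32108984, plus strand, NCBIM37), the gene with the smallest F of its family, lay in the G1 hours between 29.6 and 62.6 in Cycle 1 after 108 and 83.9 before serum, and between 70.5 and 141 in Cycle 2 after 136 and 130. The groups did not overlap in Cycle 1 and overlapped in Cycle 2. Against the starved libraries this was not called (log2 change -0.70 ± 0.32, limma adjusted p = 0.088). From the G1 hours to the late hours, where it reached between 147 and 264 in Cycle 1 and between 109 and 150 in Cycle 2, it rose by 1.17 ± 0.26 (limma adjusted p = 0.0053). Snrnp200, the helicase that unwinds U4 from U6 RNA, was lower early, with a log2 change of -0.49 ± 0.12 (limma adjusted p = 0.0095). That call was lost with median ratio scaling (log2 change -0.25, limma adjusted p = 0.12).

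The hnRNP proteins were mixed. Late, 7 of 18 rose (6 without the 0 h libraries), where 20.2% of all genes rose, and 1 fell, where 34.1% fell. The late median log2 change was 0.32, and in the G1 hours 2 rose (18.3% of all genes) and 3 fell (34.4%). Hnrnpab (chr11:51412372-51420349, minus strand, NCBIM37) encodes an hnRNP that binds RNA through a pair of RNA recognition motifs. It was at 3469 and 3374 normalized counts before serum in Cycle 1 and at 5327 and 5539 in Cycle 2, and late between 8472 and 10945 in Cycle 1 and between 7314 and 8095 in Cycle 2. No late library overlapped the starved ones, and the change was 2.74-fold in Cycle 1 and 1.41-fold in Cycle 2 (log2 change 0.97 ± 0.20, limma adjusted p = 0.0023).

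The number of hnRNP genes that fell was 3 of 18 early (29.3% of all genes), 3 in the G1 hours (34.4%), 1 in the middle hours (30.7%) and 1 late (34.1%), so falls were not more frequent here than among all genes. Without the 0 h libraries the numbers were 4, 3, 2 and 1. Hnrnpul1, a protein related to hnRNP U, fell from 765 and 846 to between 337 and 515 at 1 to 3 h in Cycle 1 and from 750 and 779 to between 441 and 685 in Cycle 2, below both starved libraries in each. Its early log2 change was -0.68 ± 0.14 (limma adjusted p = 0.0032) and its late one -0.26 ± 0.14 (limma adjusted p = 0.13). Hnrnph3, of the hnRNP H family that binds runs of guanines, fell by 0.72 ± 0.12 on the log2 scale in the G1 hours (limma adjusted p = 0.00081). It went from 410 and 352 to between 169 and 232 in Cycle 1 and from 302 and 260 to between 187 and 213 in Cycle 2, without overlap. Hnrnpr fell early by 0.58 ± 0.12 (limma adjusted p = 0.0039) and had a late log2 change of 0.06 ± 0.12 (limma adjusted p = 0.69), with 36.4% of its stretches copied elsewhere. Hnrnpl, which binds CA repeats, was not called by limma against the starved libraries, although edgeR called it as higher late. It rose from the G1 to the late hours by 0.77 ± 0.16 (limma adjusted p = 0.0033). Hnrnph2 had the smallest F of the family, and its late log2 change was -0.04 with a 95% interval from -0.28 to 0.20.

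SR proteins moved in both directions as well. Late, 5 of 11 rose (20.2% of all genes) and 2 fell (34.1% of all genes), so falls were not more frequent than among all genes. The late median log2 change was 0.30, and without the 0 h libraries 4 rose and 1 fell. Srsf2, known as the speckle protein SC35, was called by limma as higher from the middle hours on, and by edgeR and with median ratio scaling from the G1 hours on. Its early libraries lay between 1661 and 2186 in Cycle 1, at the level of the starved ones or above, and between 2011 and 2369 in Cycle 2, below both. It went from 1850 and 1656 to between 3356 and 3919 late in Cycle 1 and from 2759 and 2538 to between 2981 and 3820 in Cycle 2, without overlap. Its late log2 change was 0.69 ± 0.18 (limma adjusted p = 0.0084), with 1.08 in Cycle 1 and 0.29 in Cycle 2. Srsf7, an SR protein with a zinc knuckle, had its largest change in the middle hours, when it lay between 1924 and 2654 in Cycle 1 after 1177 and 966, and between 1644 and 1895 in Cycle 2 after 1527 and 1437. That log2 change was 0.67 ± 0.18 (limma adjusted p = 0.012). Srsf4 rose late by 0.56 ± 0.13 (limma adjusted p = 0.0053), with 0.66 in Cycle 1 and 0.46 in Cycle 2. The late libraries of Srsf11 overlapped its starved ones in both Cycles, with a late log2 change of 0.00 and a 95% interval from -0.19 to 0.20.

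Srsf12 (chr4:33295966-33320315, plus strand, NCBIM37), an SR protein akin to Srsf10, had the largest fall of the 56 genes. It was at 46.6 and 37.4 normalized counts before serum in Cycle 1 and at 13.4 and 19.8 in Cycle 2. The late libraries lay between 0 and 5.76 with a median of 3.01 in Cycle 1 and between 3.78 and 11.0 with a median of 5.40 in Cycle 2. The groups did not overlap, and the log2 change was -2.51 ± 0.56 (limma adjusted p = 0.0039) on the log2(value + 1) scale, which understates changes at such levels. In Cycle 1 it was at 36.2 at 1 h and 5.04 at 2.5 h. These late levels are a few reads per library, so differences among the later hours are not detectable at this depth.

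Srsf5 was highest at 1 h. In Cycle 1 it went from 1188 and 1528 in the starved libraries (-1 and 0 h) to 1978 at 1 h and 862 at 3 h, below both starved libraries. In Cycle 2 the values at those hours were 842, 1070, 1588 and 925. The 1 to 1.5 h window was above the starved level in both Cycles, but its log2 change of 0.59 ± 0.21 did not pass the test (limma adjusted p = 0.083). Late, Srsf5 was lower by 0.80 on the log2 scale in Cycle 1 and by 0.22 in Cycle 2, a log2 change of -0.51 ± 0.18 (limma adjusted p = 0.035). This call rests on the 0 h libraries, in which Srsf5 was already higher than at -1 h, and without them the log2 change was -0.33 (limma adjusted p = 0.14). It was also lost with edgeR. Of its searched stretches 50.0% had copies elsewhere.

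**Figure D3:**
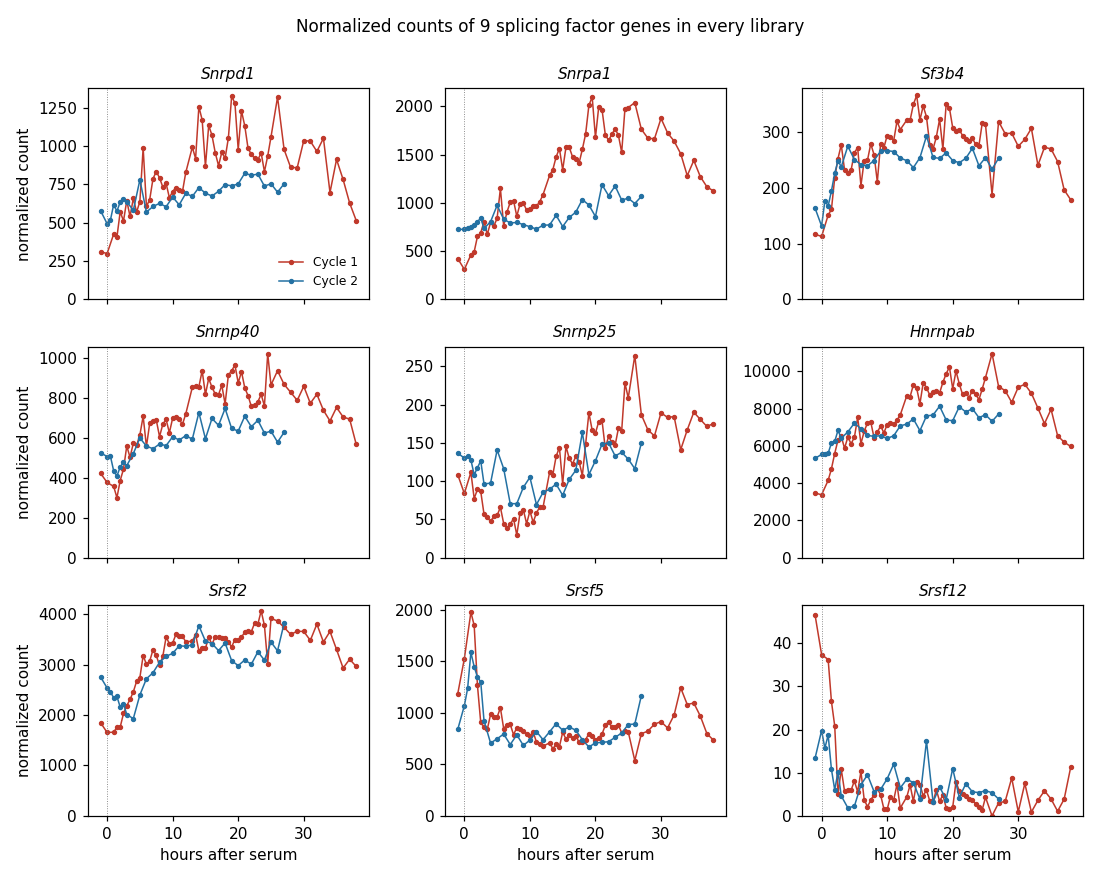
Normalized counts (vertical axis, from 0, scaled per gene) of 9 of the genes are drawn against hours after serum, with 1 point per library for Cycle 1 (red, to 38 h) and Cycle 2 (blue, to 27 h). Snrpa1 and Snrpd1 start lower and end higher in Cycle 1. Snrnp25 dips at 4 to 10 h in Cycle 1 and is lowest at 11 h in Cycle 2. Srsf5 peaks at 1 h, and Srsf12 is low from 4 h on in both but for 1 library of Cycle 2 at 17.4.

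Both Cycles pointed the same way late for 50 of the 56 genes. The late number for all genes is not given here. At 11 to 14 h the direction was shared by 49 of the 56 genes and by 12551 of all 15895 genes. Each gene that rose changed more in Cycle 1, as the plot of late changes in the Cycles shows, with the exception of Snrnp48 (0.19 in Cycle 1 and 0.26 in Cycle 2), whose late call was lost without the 0 h libraries. The log2 range over the windows exceeded 1, a change of 2-fold, for 32 genes in Cycle 1 (57.1%) and 3 genes in Cycle 2 (5.4%), beside 69.0% and 42.6% of the 11882 genes with a mean of at least 20. Of the 56 genes, 27 had their highest window at 24 to 27 h in Cycle 1, and 13 did in Cycle 2. How many of all genes did so was not counted. In the 11 libraries of Cycle 1 from 28 to 38 h, which Cycle 2 does not cover, the median log2 change against the starved libraries was 0.64, with 51 of 56 genes above 0, beside -0.14 and 6929 of 15895 for all genes. Against 19 to 27 h of the same Cycle the median was -0.10, beside 0.02 for all genes. Over 36 to 38 h the median against starved was 0.50, beside 0.00 for all genes.

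**Figure D4:**
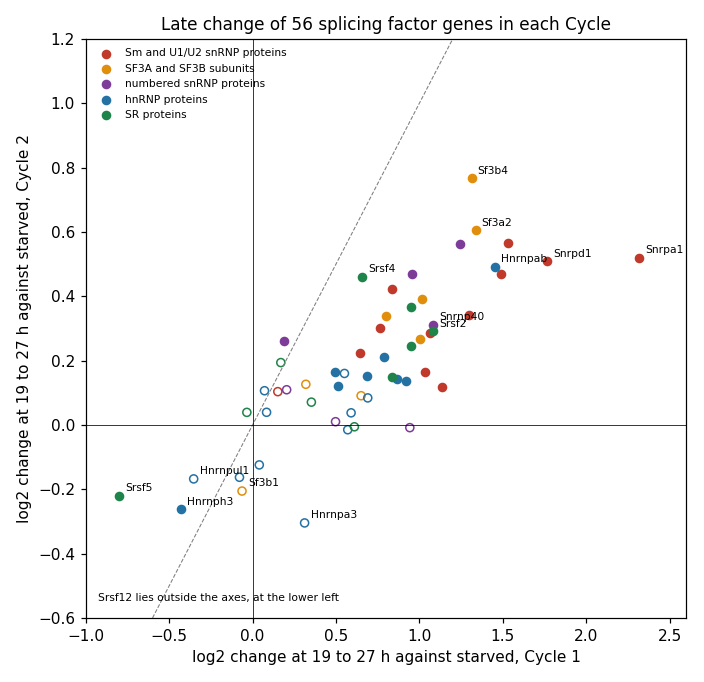
Each point is 1 of 55 genes, placed by its late log2 change against starved in Cycle 1 (horizontal axis) and Cycle 2 (vertical axis), with Srsf12 outside the axes, coloured by family, filled where the limma test called the change and open where it did not. The dashed line marks equal change, and most filled points lie to the right of it, with Snrpa1 at 2.32 and 0.52.

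The other genes of the splicing pathway were described with 7 lists. Among all genes, 20.2% rose late and 34.1% fell. Late, 11 of 21 U2 auxiliary, branch point and commitment factors rose and 2 fell, 16 of 32 tri-snRNP, Prp19-related and helicase genes rose and 1 fell, and 8 of 13 measured Lsm genes rose and 1 fell. Of the snRNP assembly genes 13 of 19 rose and none fell, and 1 had an unadjusted 95% interval wholly below 0. Of the exon junction and export genes 13 of 19 rose and 1 fell. SR protein kinases and SR-related genes were mixed, with 8 of 27 higher and 6 lower. So were other RNA-binding splicing regulators, with 16 of 39 higher and 6 lower. In neither list were falls more frequent than among all genes. The late median log2 change ran from 0.11 for the SR-related genes to 0.70 for the snRNP assembly genes.

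For each list, the gene with the largest rise and that with the largest fall among those called by limma are given. Ddx39, a helicase of mRNA export, rose late by 1.82 ± 0.34 on the log2 scale (limma adjusted p = 0.0015), with 2.63 in Cycle 1 and 1.00 in Cycle 2. Ppih, a cyclophilin of the tri-snRNP, rose late by 1.56 ± 0.37 (limma adjusted p = 0.0052), Gemin6 of the SMN complex by 1.23 ± 0.41 (limma adjusted p = 0.025) and Phf5a, a partner of SF3B, by 0.96 ± 0.21 (limma adjusted p = 0.0037). Lsm11, which with Lsm10 replaces Sm proteins in the U7 particle of histone mRNA processing, rose by 1.42 ± 0.19 in the middle hours (limma adjusted p = 0.00021), while Lsm10 fell by 0.86 ± 0.12 early (limma adjusted p = 0.000397). Khdrbs3, a signal-dependent RNA-binding protein, rose by 1.03 ± 0.11 in the middle hours (limma adjusted p = 5.3e-05), and Sap18 by 0.76 ± 0.13 late (limma adjusted p = 0.00091). Mbnl3, a muscleblind protein, fell by 2.00 ± 0.22 in the G1 hours (limma adjusted p = 5.7e-05), Gemin8 by 1.29 ± 0.22 (limma adjusted p = 0.00087), and Srpk3, an SR protein kinase, by 1.48 ± 0.56 late (limma adjusted p = 0.044). Early, Rbm5 fell by 1.07 ± 0.16 (limma adjusted p = 0.00061), Upf3b by 0.81 ± 0.24 (limma adjusted p = 0.0197) and Prpf6 by 0.47 ± 0.10 (limma adjusted p = 0.0034).

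Many splicing factor genes have processed copies, and reads that match more than 1 place may be lost or shared. Of the 56 genes, 34 had at least 1 searched stretch with a perfect copy elsewhere in the NCBIM37 assembly, and 19 had more than 10% of their stretches copied, led by Hnrnpa3 (89.3%), Hnrnpa1 (82.8%) and Hnrnpf (76.7%). Among these 19 genes 10 rose late and 1 fell, and among the other 37 genes 22 rose and 2 fell, with late medians of 0.42 and 0.47. Reads were counted on both strands, so reads on exon bases shared with a gene on the opposite strand cannot be told apart. The spans of Hnrnpab and Agxt2l2, Hnrnph3 and Rufy2, Sf3a2 and Plekhj1, and Srsf2 and Mfsd11 overlap on opposite strands, among other pairs. Whether their exons overlap was not tested.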

How the data were processed

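RNA of primary MEF cells was sequenced in 2 serum time courses. Per the labels and the study's methods, the authors aligned the reads with STAR to mm9, used HOMER to count exon reads regardless of strand and brought all libraries to a common total, so the deposited values are a normalized signal per gene. 1 column whose name matches no sample was left out. Values were divided by what 1 read is worth in their library to recover whole reads, and between 94.2% and 96.2% of low values came out whole.

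From these values, log2(value + 1) of the 62 libraries at hours sampled in both Cycles was averaged in 9 windows per Cycle and fitted in limma 3.58.1 (R 4.3.3) with window and Cycle as terms, 8 residual degrees of freedom, all 15895 genes adjusted together, a two-sided threshold of 0.05 on the adjusted p and no filter on low values. The 95% intervals take limma's SE with 8 degrees of freedom, and so are slightly wider than those of the moderated test. The Cycle entered as a block because the study divides each course by its own baseline. The numbers mark 1 time course each, and the deviations of its windows correlated above 0.1 in 34 of 36 pairs of windows (median 0.47). edgeR 4.0.16 on recovered reads was an alternative, and it called 43 of the 56 genes as higher late and 4362 of all genes. On simulated data for the late comparison over 15895 genes, limma recovered 100 of 100 genes changed by 1 on the log2 scale. It recovered 32 of 100 changed by 0.5, with 20 of 15695 unchanged genes called. The simulation gave all genes the same spread between windows beyond read sampling, no Cycle effect, and far fewer changed genes than were called here. These rates are therefore not those of the test on the data. Named genes are, per family, the 3 with the largest called change in the same direction in both Cycles and the 1 with the smallest F, and per list the largest rise and fall. The rule for the 56 genes uses symbols alone, but this set of families and the lists were picked for description with earlier results of these data known. Stretches of 50 bases, every 5 bases of each transcript, were matched to NCBIM37 with minimap2 2.31. Promoters are from RefSeq.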

Additional observations from a re-analysis of the deposited data

Results flagged for a closer look

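Hnrnpa3 and Hnrnpk moved in opposite directions in the Cycles, with every library of a group of hours above both starved libraries in Cycle 1 and below both in Cycle 2. Hnrnpa3 changed at 11 to 18 h by 0.34 on the log2 scale in Cycle 1 and by -0.28 in Cycle 2. Hnrnpk changed at 4 to 10 h by 0.25 in Cycle 1 and by -0.28 in Cycle 2. The difference between the Cycles was not tested, since each Cycle is 1 series. Perfect copies elsewhere held 89.3% of the searched stretches of Hnrnpa3 and 50.8% of those of Hnrnpk. No sample stood apart by Dixon's criterion in the 30 groups of at least 4 values that were examined. For the median of the 56 genes, windows with fewer libraries in a Cycle, the starved one among them, could not be examined. For single named genes the group was the 4 starved libraries of both Cycles, whose levels differ.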

How the results depend on the processing

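The direction of the change of each of the 15 splicing factor genes named for a large change was kept in 13 other settings and in each Cycle alone, and so was its call in the 13 settings, except that Srsf12 was left out by the filter on a mean of at least 20. The counts of genes were less stable. The share of all genes is given in brackets. With median ratio scaling 10 genes rose (16.7%) and 2 fell (16.2%) early, 21 rose in the G1 hours (24.1%) and 1 fell late (30.7%). With quantile scaling 7 rose early (15.0%) and 17 in the G1 hours (25.4%). With edgeR on recovered reads 9 rose (15.8%) and 2 fell (17.1%) early, 25 rose in the G1 hours (25.3%) and 1 fell late (28.7%). Without the 0 h libraries 7 fell early (31.2%) and 6 rose in the G1 hours (17.5%). Without the replicate block 7 rose in the G1 hours (14.5%) and 27 late (16.2%), and no other count moved by over 1.5 times. Taking single libraries as replicates, which counts neighbouring hours as independent, gave 55 genes in the F test. It gave 8 up (13.6%) and 10 down (38.5%) early, and 24 up (23.1%) and 14 down (41.7%) in the G1 hours. In the middle hours 37 were up (26.7%) and 7 down (36.9%). Late 5 were down (39.9%), and 44 were up from the G1 to the late hours (36.0%). The genes that rose late numbered from 27 to 43. In each Cycle alone, which allows no test, the late median was 0.69 in Cycle 1 and 0.16 in Cycle 2.

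Scaling moved the split of all early calls, of which 25.7% were rises in the fit reported 50.7% with median ratio scaling, 45.5% with quantile scaling and 48.0% in edgeR. For the late calls the shares were 37.2%, 43.5%, 52.6% and 48.9%. The early median of the 56 genes was -0.04, 0.21 with median ratio scaling and 0.20 in edgeR, and the G1 median of 0.18 became 0.36 in edgeR. The causes of these moves were not tested. A setting without the 24, 25 and 26 h libraries of Cycle 1 was chosen after seeing the data. It gave 32 up (20.5% of all genes) and 2 down (33.6% of all genes) late. Changes of 0.5 on the log2 scale were often missed in the simulation, whose spread and share of changed genes differ from the data. Its recovery is not that of the real test, and a gene that was not called may still have changed.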
